A study of Mus musculus with 18 samples.

Results

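Myc encodes a transcription factor that drives cell growth and division, and in blood cells its level falls as progenitors mature. In blood stem and progenitor cells Myc is known to be driven by a cluster of enhancers that lies far from the gene, beyond the long noncoding RNA gene Pvt1. The contacts of Myc were taken from a list of loops, that is, pairs of positions (anchors) that meet in the nucleus more often than their surroundings. Members were all loops with both anchors between positions 61000001 and 64500000 of chromosome 15 (build mm9, an interval of 3.5 Mb), and these were 26 of the 20926 loops in the list and of the 807 on chromosome 15. They were split by whether an anchor overlapped the Myc window (61790001 to 61850000) or the blood enhancer window (63300001 to 63700000). Both windows were taken as given and were not checked against an mm9 gene annotation, so Myc, as the name of an anchor region below, means the region in the Myc window. That window had 11 loops, the blood enhancer window had 8, and 3 of these joined both windows. The remaining 10 loops touched neither. The interval also met 20 of the 13483 domains in a second list, a domain being a block of chromosome with more contacts inside it than across its ends.

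The lists come from Micro-C, in which chromatin is cut between nucleosomes and DNA ends that lie close together are ligated and sequenced. The cells were G1E-ER4, a mouse erythroblast line whose GATA1, a master factor of red cell development, is supplied as a fusion that responds to hormone, in a subline whose LDB1 is joined to an auxin-inducible degron. LDB1 is a bridging protein that brings together sites bound by GATA1, TAL1 and LMO2, and both groups carry the degron: 9 untreated samples and 9 samples with auxin for 4 h, which generally removes a protein tagged in this way. The labels name no hormone treatment. Each list is given once for the series, names no sample and holds positions alone. No value below can therefore be assigned to a treatment, no value has replicates, and loss of Myc contacts after auxin was not analysed here. The lists hold no expression values either, so the labelled cell type could not be checked against markers. The depth of the samples is unknown here, and a contact that is not in the list may lie below the caller's threshold. No comparison below was tested across samples, and comparisons with the whole list are descriptions.

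Loops at Myc formed a fan from a single position toward higher coordinates. The 11 loops met in an anchor region of 16.5 kb, from 61807501 to 61824000, and 8 of them used exactly the same anchor, 61812501 to 61822500. The nearest partner was an anchor starting at 61927501, 115 kb from the Myc anchor. The next partners started at 61947501, with a span of 135 kb, and at 61977501, with a span of 165 kb. A loop of 172 kb had its far anchor at 61986001 and overlapped the loop of 165 kb at both anchors, on a finer bin grid. Farther out, Myc was joined to anchors starting at 62047501 (235 kb), 62152501 (340 kb), 62250001 (440 kb) and 62632501 (825 kb). These 8 loops had a median span of 203.5 kb, and none exceeded 1 Mb. No member loop lay on the lower side of Myc.

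Beyond a break in spans from 825 to 1615 kb came the 3 loops that joined Myc to the blood enhancer window. All of them started at the anchor that 5 of the nearer loops also used. Their far anchors were 63427501 to 63437500, at a span of 1615 kb, 63477501 to 63487500, at 1665 kb, and 63567501 to 63577500, at 1755 kb. The midpoints of these far anchors were 50 and 90 kb apart, and the anchors did not overlap each other. Loops of this length were uncommon in the list: 248 of 20926 loops (1.19%) were at least as long as the shortest of the 3. The windows lie 1450 kb apart, so any loop that joins them is long by the choice of windows.

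**Figure D1:**
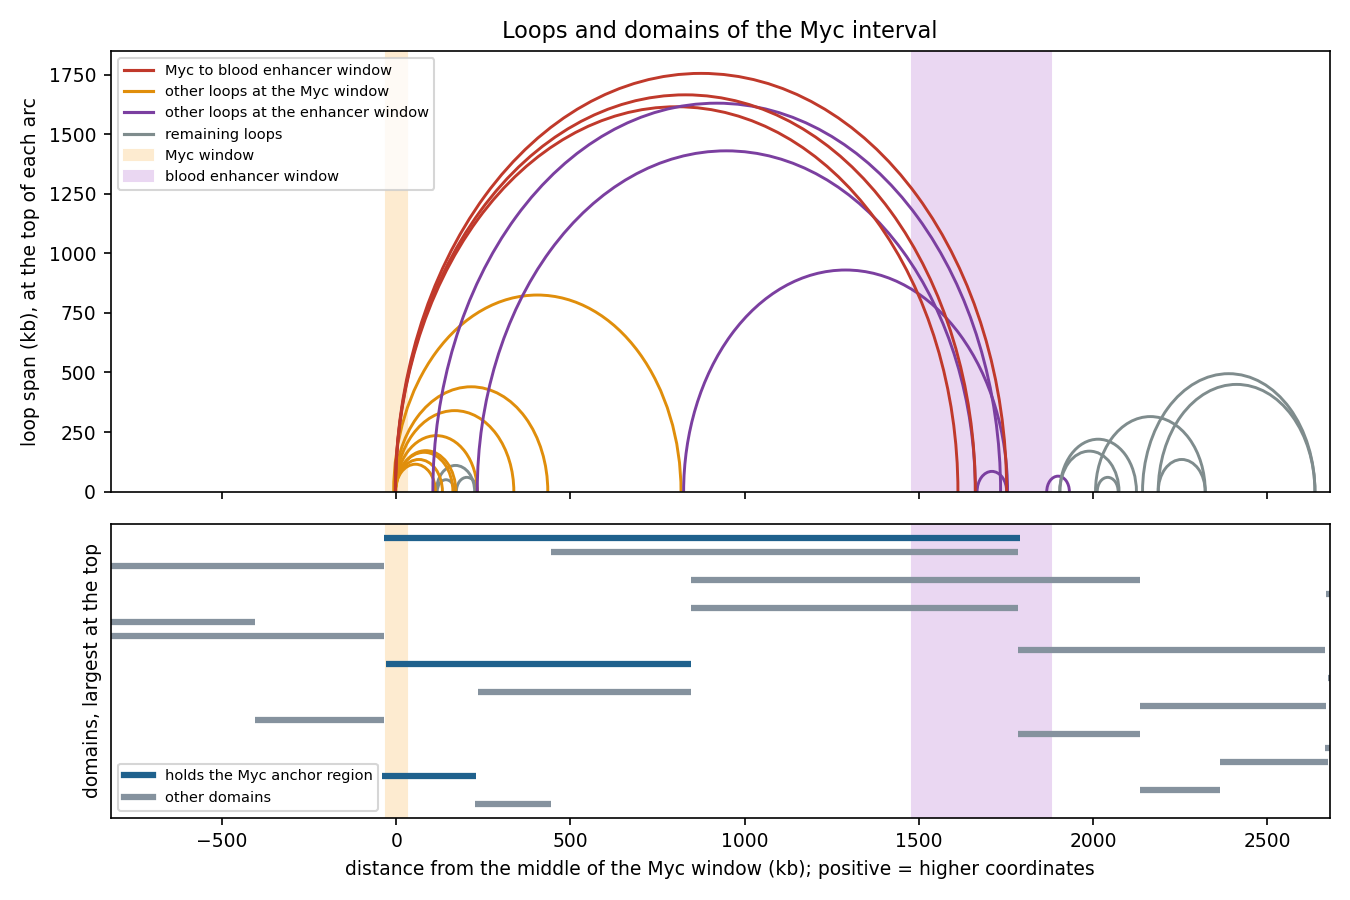
Upper panel: each loop of the interval as an arc between its anchor midpoints, with the distance from the middle of the Myc window in kb on the x axis and the loop span in kb as the arc's height. Lower panel: the 20 domains that meet the interval, cut at its edges, with the 3 that hold the Myc anchor region in blue. The 11 arcs at Myc all run to the right, and 3 of them end in the blood enhancer window.

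The blood enhancer window was tied to the Myc side by loops that did not start at Myc as well. An anchor at 61920001 to 61930000, in the same anchor region as the nearest Myc partner, was joined to 63550001 to 63560000 over 1630 kb. The partner of Myc at 62047501 was joined to 63477501 over 1430 kb, which is the same far anchor that Myc itself reached. An anchor at 62640001, which overlapped the Myc partner at 62632501, was joined to 63570001 over 930 kb. Within the window, 63482501 to 63492500 was joined to 63567501 to 63577500 over 85 kb, so that places contacted by Myc also contacted each other. The 7 loops that linked the window with the Myc side, or its contacted places with each other, used 4 anchor regions of the window, all between 63427501 and 63580000, a stretch of 152.5 kb in a window of 400 kb. The eighth loop of the window, from 63682501 to 63747501 with a span of 65 kb, shared no anchor with the others. The median span of the 8 loops was 1522.5 kb, but this covers 5 loops over 1 Mb, 1 of 930 kb and 2 under 100 kb.

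When overlapping anchors were merged, Myc belonged to a network of 12 anchor regions and 18 loops, of which 11 loops (61.1%) had an end at Myc. Of the other 11 regions, 10 were joined to Myc directly and the region at 63550001 was reached through 1 partner. Sets of 3 regions that were all joined to each other numbered 7 in this network, and 6 of them included Myc. In 3 of these the partners were the regions starting at 61920001, 61977501 and 62040001, in pairs, whose middles lay within 233 kb of the middle of the Myc region. The other 3 included the enhancer window: Myc with 62040001 and 63477501, Myc with 62632501 and 63567501, and Myc with 63477501 and 63567501. The seventh set was formed by the 3 near partners without Myc. Of the 45 pairs among the 10 partners of Myc, 6 pairs (13.3%) were joined, beside a median of 11.1% (quartiles 7.77 and 16.7%) over the 66 anchor regions of the list with 10 or more loops, so the share at Myc lay within the middle of that range. Among the 269 networks of 10 to 14 regions, the busiest region had an end of a median of 40% of the loops (quartiles 33.3 and 46.7%), and 16 networks reached the share of Myc or more.

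The 10 remaining loops lay on either side of the enhancer window. Near Myc, 3 short loops joined its partners to each other: 61930001 to 62040001 over 110 kb, 61932501 to 61982501 over 50 kb, and 61987501 to 62047501 over 60 kb. The other 7 formed a separate network of 8 regions from 63720001 to 64462500 with a median span of 220 kb. In it, 63720001 was joined to 63890001 (170 kb) and 63940001 (220 kb), and 63822501 to 64137501 (315 kb), while 63827501 was joined to 63887501 (60 kb). Farther along, 64002501 was joined to 64137501 (135 kb) and to 64452501 (450 kb), and 63957501 to 64452501 (495 kb). This network held no set of 3 regions all joined to each other, and no loop tied it to the network of Myc. The longest loop in the whole list spanned 1995 kb. From 63822501 on, the regions of this network lay 2014 to 2642 kb from the Myc region. A direct loop from Myc to those regions would be longer than any in the list, so its absence is not informative.

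Myc stood among the busiest anchor regions of the list. With 11 loops it was 1 of 32 regions, out of 20368, with at least that many, and 5 of these 32 were on chromosome 15. Of the 66 regions with 10 or more loops, 3 (4.55%) sent all of their loops the same way, and Myc was the only one of these whose loops all ran to higher coordinates. The others were 123170001 to 123190000 on chromosome 7, with 10 loops of up to 1120 kb, and 27264001 to 27290000 on chromosome 8, with 11 loops of up to 890 kb, and all of their loops ran to lower coordinates. At a threshold of 8 loops, 38 of 220 regions (17.3%) sent all loops the same way, 23 of them to higher coordinates, and with each contact counted once it was 3 of 41 regions with 10 or more loops (7.32%), so the rarity of such regions depends on the setting. The longest loop at Myc, 1755 kb, was exceeded at 5 of the 66 regions, whose longest loops had a median of 652.5 kb. The Myc region was also narrow, with 1 of the 66 regions narrower and a median width of 27.5 kb. The share of its loops on the same exact anchor, 72.7%, was exceeded by 0 of the 66, whose median was 31.7%. Width and exact sharing also depend on the bin grids of 2, 5 or 10 kb on which anchors lie. Of the 11 loops at Myc, 9 (81.8%) were on the 5 kb grid, beside 47.0% of all loops. The part played by the grids was not tested.

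**Figure D2:**
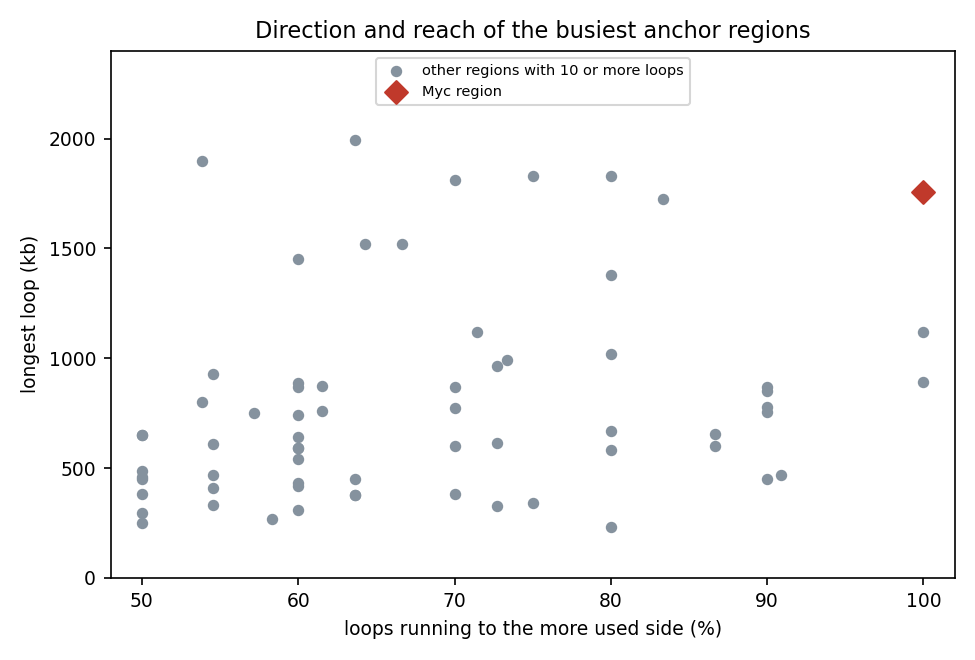
Each point is 1 of the 66 anchor regions with 10 or more loops, with the percentage of its loops that run to the more used side on the x axis and its longest loop in kb on the y axis. The diamond marks Myc, at 100% and 1755 kb, beside the other 2 regions at 100%, with longest loops of 1120 and 890 kb.

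Long loops at a busy region were uncommon in the list. Of the 66 regions, 52 had no loop over 1 Mb and 5 had at least 3 such loops. Besides Myc, these were 101797501 to 101824000 on chromosome 15 (3 of 14 loops), 170327501 to 170352500 on chromosome 2 (5 of 12 loops), and 145097501 to 145157500 and 145167501 to 145202500 on chromosome 4 (11 of 15 and 6 of 11 loops). Each of those 4 had loops in both directions. Over regions of any size, 42 had at least 3 loops over 1 Mb, and 17 of the 42 sent all of their loops the same way.

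Spans in the interval ran from 50 to 1755 kb with a median of 227.5 kb, beside a median of 175 kb in the whole list. Loops over 1 Mb made up 5 of the 26 members, 19.2% (95% Wilson interval 8.51 to 37.9%, which covers the counting of loops only), and 3.99% of all loops. On chromosome 15 outside the interval the share was 38 of 781 loops, or 4.87%. All 5 long members ended in the blood enhancer window, 3 of them at Myc and 2 at partners of Myc. The genome was also laid out in 722 stretches of 3.5 Mb, of which 17 (2.35%) held 5 or more loops over 1 Mb and 460 held none. The interval was chosen to hold both windows, whereas the stretches were cut at fixed positions and loops across their edges were not counted. The high share of long loops in the interval therefore follows in part from how it was chosen. In the number of loops of any span the interval was ordinary: it had 7.43 loops per Mb, against 8.05 on chromosome 15 and 8.13 in the whole list, and 57.6% of the stretches held fewer loops. Anchors in the list lie on grids of 2, 5 or 10 kb, and of the 12 members under 200 kb, 1 (8.33%) lay on the 2 kb grid, beside 37.5% of such loops in the whole list. The difference was not tested.

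**Figure D3:**
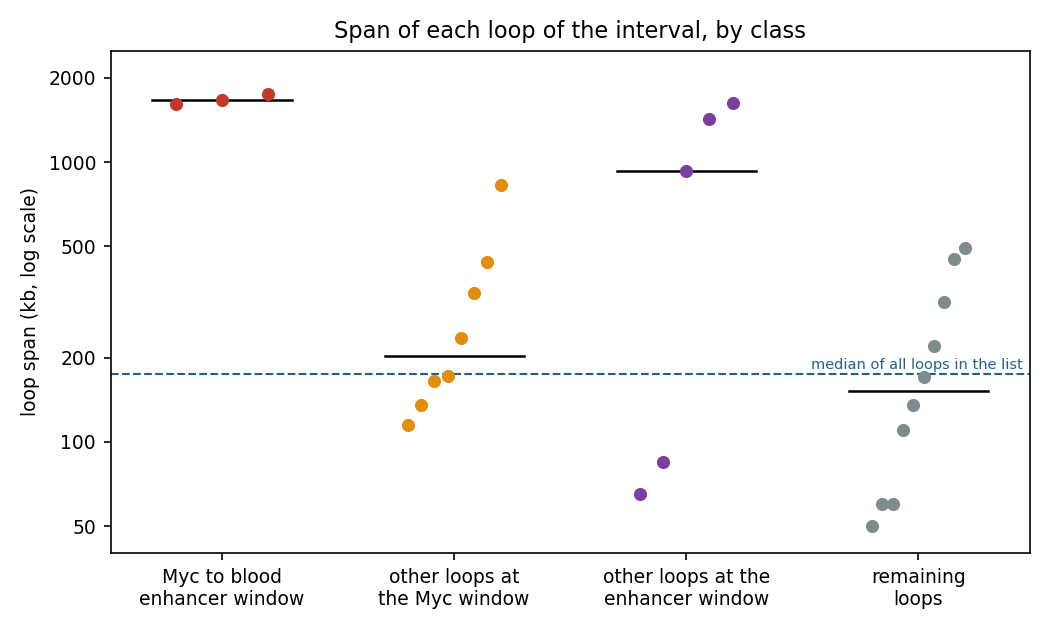
Each point is 1 of the 26 loops of the interval, grouped by the windows its anchors overlap, with its span in kb on a log scale. Black lines are group medians, and the dashed line is the median of all loops in the list, 175 kb. The 3 loops from Myc to the blood enhancer window lie between 1615 and 1755 kb, in part by the choice of windows, which lie 1450 kb apart.

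The loops of the Myc network lay within a single large domain. Of the 20 domains, 3 held the Myc anchor region, and their starts lay together at 61780001, 61785001 and 61790001. The smallest, of 270 kb, ended at 62050000 and held 4 of the 11 loops at Myc. The next, of 875 kb, ended at 62665000 and held 8. The largest, of 1825 kb, ended at 63610000, and it held all 11 loops at Myc and all 18 loops of the network. It was the only domain that met both the Myc window and the blood enhancer window, and 147 of the 13483 domains (1.09%) were of its size or larger. It did not hold the whole enhancer window, which ends at 63700000. Only the domain of 1290 kb from 62665001 to 63955000 held that window whole. This other domain left Myc out, ran across the end at 63610000, and held 5 loops, 0 of them at Myc. All 26 members had both anchor midpoints inside at least 1 domain, beside 86.5% of all loops, and the 3 loops from Myc to the enhancer window were held by this largest domain alone. Domains of the interval had a median size of 837.5 kb, against 410 kb in the whole list, a figure that includes domains reaching past its edges. Of the 20, 8 (40%) held no loop, beside 50.2% of all domains.

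Ends of these domains lay close to some of the partners of Myc. The far anchor of the loop of 235 kb had its midpoint 2.5 kb from the domain end at 62050000, and that of the loop of 440 kb lay 10 kb before the boundary at 62265000. The loop of 825 kb ended 27.5 kb before 62665000, and the loop of 1755 kb ended 32.5 kb before 63605000. The far anchors of the remaining loops at Myc lay from 54 to 172.5 kb from the nearest boundary. At the near end, anchors at Myc had midpoints 22.5 to 29 kb past the boundary at 61790000. Of the 37 distinct anchors in the interval, 6 (16.2%) lay within 20 kb of a boundary, beside 26.6% of all anchors, and 14 (37.8%) lay within 40 kb, beside 44.2% of all anchors.

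Loops crossed the boundaries inside the large domain and not those at its ends. Boundaries within 10 kb of each other were grouped, which gave 9 groups in the interval. The group from 61780000 to 61790000, at the lower side of Myc, was crossed by 0 loops, and 6 domain ends fell in it. This group lay in a stretch without any anchor, from 60752001 to 61807500. The group from 63605000 to 63610000, where 5 domain ends fell, was also crossed by 0 loops. It lay between the network of Myc and that at higher coordinates. Between them, the group from 62045000 to 62055000 was crossed by 7 loops, 6 of them at Myc. The boundaries at 62265000 and 62665000 were crossed by 6 loops each, with 4 and 3 of them at Myc. All of these boundaries lie between the Myc window and the enhancer window, so any loop joining the windows crosses them by choice of windows. Every loop over 62665000 had an anchor in the enhancer window. The numbers of loops crossing here therefore follow in part from how the interval was chosen. In the whole list, 49.3% of boundary groups were crossed by 0 loops, the median was 1, and 6.14% were crossed by 6 or more. In all, 4 of the 9 groups in the interval were crossed by 0 loops, a share near that of the whole list.

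**Figure D4:**
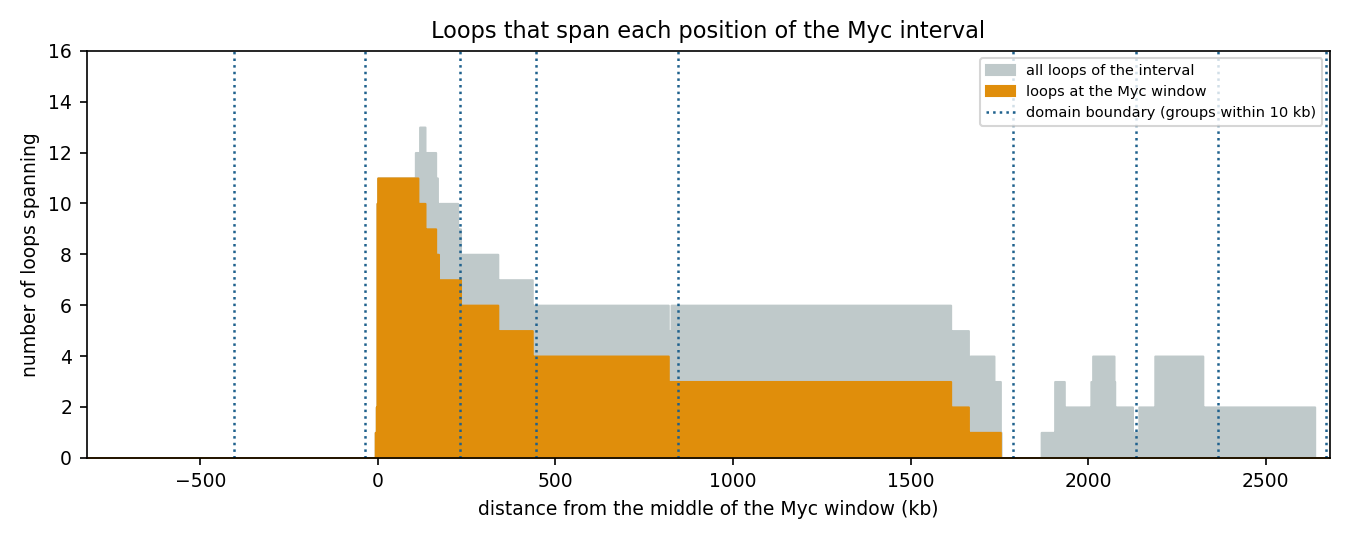
Number of loops that span each position, by distance in kb from the middle of the Myc window, for all loops of the interval (grey) and for those at the Myc window (orange). Dotted lines mark the 9 groups of domain boundaries. The count is 0 at the boundaries on the lower side of Myc and just past the last Myc contact. It stays above 0 at the 3 boundaries between them, which any loop joining the windows crosses by the choice of windows.

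No genes could be placed on the anchors, because the gene table used here is of GRCm38 and the lists are of mm9. By gene order alone in that table, the gene that follows Myc toward higher coordinates is Pvt1, which gives rise to a long noncoding RNA and is often gained together with Myc in tumours. Between Pvt1 and Gsdmc, the first of the gasdermin C genes, the table lists 15 genes, of which 0 are protein-coding and 8 are long noncoding RNA genes. From Gsdmc to Asap1 the protein-coding genes are Gsdmc, Gsdmc2, Gsdmc3, Gsdmc4, Cyrib and Asap1, where Cyrib (also called Fam49b) restrains actin remodelling through RAC1 and Asap1 acts on ARF GTPases. On the lower side, 1 protein-coding gene, A1bg, stands between Lratd2 (Fam84b) and Myc. Which of these genes lie at the partners of Myc was not determined here.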

How the data were processed

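Both deposited lists hold genome coordinates in bp. Each is given once for the series, with no sample named, no score and no value per sample. The build is mm9 per the submitters' processing notes. How reads were aligned, how loops and domains were called and filtered, and which samples entered each list is not given in the sources used here. There were 0 columns of per-sample values that lacked a sample. Depth per sample is unknown, so precision is given only as 95% Wilson intervals of counted loops.

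Coordinates are printed from 1. Span was the distance between anchor midpoints, and each anchor is 10 kb wide. A loop was on the 10 kb grid when both anchors started at multiples of 10 kb, on the 5 kb grid when an anchor started 2.5 kb off a multiple of 5 kb, and otherwise on the 2 kb grid. Anchors overlapping by 1 bp were merged into regions. A loop lay inside a domain when both midpoints did. Python 3.11.15, numpy 2.4.6, pandas 2.3.3, scipy 1.17.1 and matplotlib 3.10.9 were used, and the merging and network steps were checked on planted lists. Loops were named by rule: every loop at the Myc window, every loop joining it to the enhancer window, and the busiest regions, and the other members are given in full. The windows and lists were chosen with earlier results of these data known. No test was run.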

Additional observations from a re-analysis of the deposited data

How the results depend on the processing

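The 13 results were recomputed under 32 alternatives, 6 of them added after the data were examined. Of the 32, 27 stayed within 1.5 times the count, within the interval of the median or share, or, for the path below, at the same value. The shortest path from Myc to the enhancer window took 1 loop in each setting, which the direct loops fixed however anchors were merged. The window of Myc had 10 or 11 loops in every alternative run, the enhancer window 7 to 10, and the 2 windows were joined by 3 loops in each. The interval had 25 loops with each contact counted once. The values that moved were these. Of the 20 domains, 11 hold no other domain and 9 lie inside no other, fewer than 20 by the construction of these alternatives. A boundary distance of 40 kb gave 14 of 37 anchors (37.8%) in place of 6, beside 44.2% of all anchors. Regions with all loops the same way numbered 38 of 220 at a threshold of 8 loops, and 8 of 272 when anchors within 10 kb were merged, in place of 3 of 66, and 3 of 41 with each contact counted once. In all of these settings 0 of the loops at Myc ran to lower coordinates. The share of members over 1 Mb was 19.2 to 21.1%, against 3.73 to 5.03% of all loops. These settings share most of their loops and were judged against a wide interval, 8.51 to 37.9%, so they say little about stability. Grid-specific medians rest on 1 or 2 loops for some grids. For the enhancer window the interval of the median was the full range of spans, 65 to 1755 kb, so no grid could have moved it. For Myc the interval ran from 135 to 1665 kb, and medians of 172 and 440 kb counted as unmoved beside 340 kb. These grid alternatives say little about stability. No paired analysis was possible because neither list has values by sample, and for the same reason the effect of auxin was not run. The unknown depth limits what a missing loop means.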

Other observations

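A long stretch without any anchor lay on the lower side of Myc, and another among its contacts. On the lower side, no anchor lay from 60752001 to 61807500, a stretch of 1055.5 kb that ended at the Myc region itself, and 370 of the 20348 anchor-free stretches in the list (1.82%) were as long or longer. Between the partner at 62632501 and the first contact in the enhancer window, no anchor lay from 62650001 to 63427500, or 777.5 kb (2.51% of stretches were as long or longer), although 6 loops passed over it. The last member anchor ended at 64462500, and the next anchor on the chromosome began 1397.5 kb farther on (1.30% of stretches were as long or longer). Just past the last contact of Myc, in contrast, the anchor-free stretch was 102.5 kb (18.8%). The median anchor-free stretch in the list was 34 kb.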
